A study of Mus musculus with 2 samples.

Results

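Genes of the cornified envelope were examined in total RNA sequencing of embryonic mouse stomach. A gene was included when its GENCODE mouse symbol began with Sprr or Lce followed by a digit, or was Ivl, Lor, Flg, Flg2, Rptn, Tchh, Tchhl1, Crnn or Hrnr, in the gene tables of both libraries. This gave 47 of 43346 genes, all within 1391.71 kb of chromosome 3 from Lor to Tchhl1 (GENCODE M21, GRCm38). They comprised 13 Sprr2 genes, 4 genes of the Sprr1, Sprr3 and Sprr4 kind, 14 Lce1 genes, 6 Lce3 genes, Lce6a, Ivl with Lor, and 7 S100-fused genes.

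The tissue was whole stomach of healthy B6NCrl embryos at day 16.5, pooled from males and females. The labels give a single group with 2 biological replicates, numbered 1 and 2. Replicate 2 was pooled from 41 embryos, and no number is given for replicate 1. RNA longer than 200 nt was extracted by the mirVana method, and 10 ng with ERCC spike-in controls entered each library. There were no genotypes or treatments to compare. The data therefore give each gene's level in the tissue and the spread between these pools.

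The cornified envelope is a layer of cross-linked protein that replaces the plasma membrane in the outermost cells of stratified squamous epithelium. Transglutaminases join involucrin, loricrin, small proline-rich (SPRR) proteins and late cornified envelope (LCE) proteins into it, and S100-fused proteins such as filaggrin, repetin and trichohyalin bind keratin filaments inside the cell. In the mouse stomach such an epithelium lines the forestomach, while the rest of the stomach is lined by simple glandular epithelium. The genes lie together in the epidermal differentiation complex.

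Replicate 1 held 44567153 expected counts and replicate 2 held 25677702, of which 3.08% and 2.05% fell on the spike-ins. Levels are in TPM, a length-corrected share of all transcripts, and are given for replicate 1 first and then for replicate 2. A mean ± SD is over n = 2 libraries. All 13 genes of a list for simple gastric epithelium reached 1 TPM in both libraries, as did 10 of 10 genes of basal squamous epithelium and 12 of 14 of suprabasal squamous epithelium. An exact sign-flip test over 2 libraries cannot give a two-sided p below 0.5, so differences between the libraries are described without a test.

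Of the 47 members, 21 reached 1 TPM in both libraries, which was taken as detection. This was 44.7% of the members, beside 35.5% of all 43346 genes. The members' levels summed to 2713 and 5034 TPM (3874 ± 1641). Only 4 members, Sprr2a2, Sprr1a, Sprr3 and Sprr2a3, stood at 100 TPM or more in both libraries. Sprr2a2, Sprr1a and Sprr3 were the 3 highest members in each library and held 91.6% and 92.2% of the members' TPM (91.9% ± 0.452). The members thus ranged from among the most abundant transcripts of the tissue to no read at all. Of the 26 members that were not detected, 9 had no read in either library, and a count of 0 allows up to 3 counts, or 0.0695 and 0.119 CPM (counts scaled to library size), covering counting error only. Sprr2h (0.31 and 1.07 TPM) and Hrnr (0.87 and 1.76 TPM) passed 1 TPM in replicate 2 alone, while Ivl (1.07 and 1.66 TPM) was the detected member with the lowest mean. In bulk tissue, fewer cells of a type and less RNA per cell cannot be told apart.

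**Figure D1:**
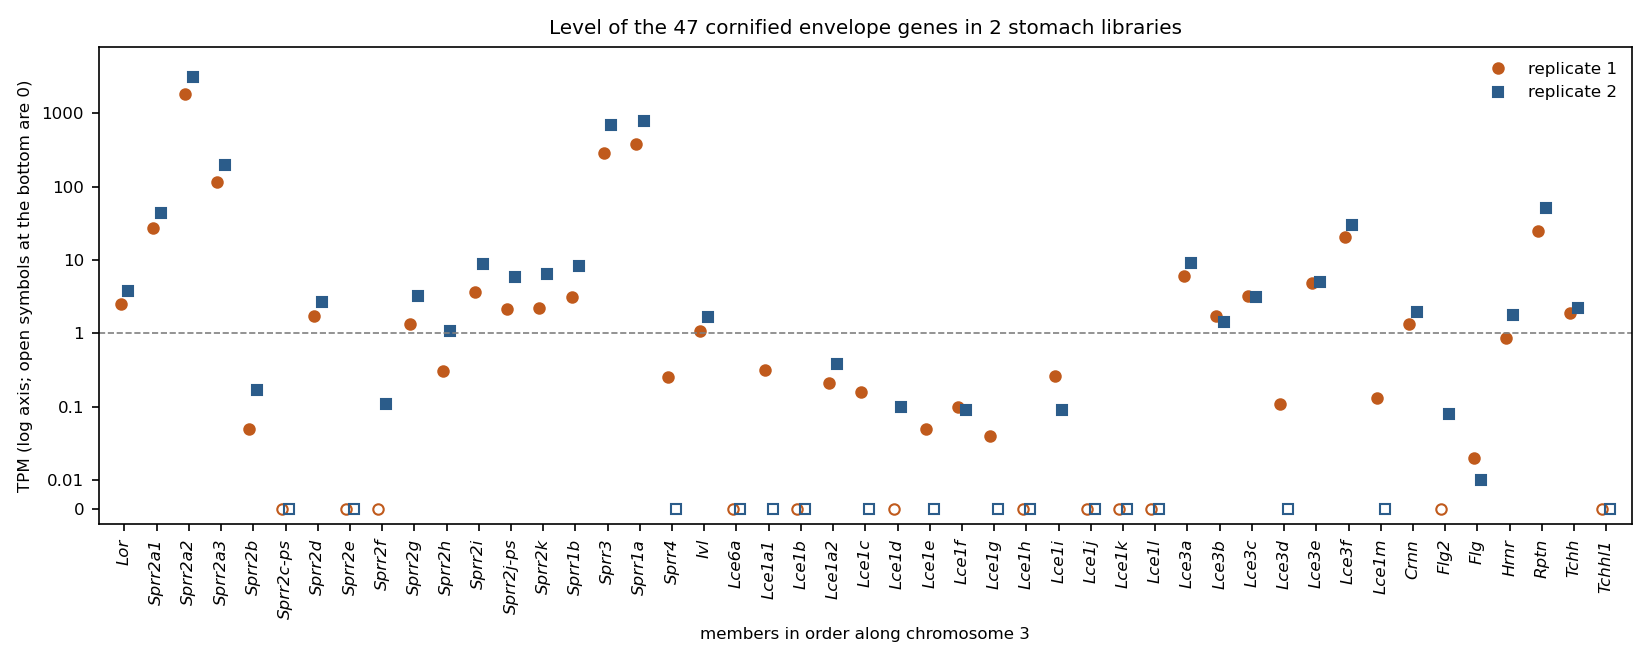
Level of each of the 47 members in TPM (log axis), ordered along chromosome 3, with circles for replicate 1 and squares for replicate 2. Open symbols at the bottom mark 0, and the dashed line is 1 TPM. Sprr2a2, Sprr1a, Sprr3 and Sprr2a3 stand above the rest, and the Lce1 genes lie below 1 TPM.

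SPRR proteins are short chains rich in proline, glutamine and cysteine that act as cross-bridges between other envelope proteins. Among 17 Sprr genes 11 were detected, or 64.7%, against 5 of 21 Lce genes, or 23.8%. The Sprr2 family held 1976 and 3431 TPM, or 70.5% ± 3.29 of the members' total. Nearly all of this was assigned to Sprr2a2 (ENSMUSG00000068893.5; chromosome 3, 92215920 to 92256724, plus strand). It stood at 1821 and 3161 TPM (2491 ± 947), from 35031 and 33966 expected counts, and ranked 17 among nuclear protein-coding genes by mean TPM. Its near copies Sprr2a3 (chromosome 3, 92285417 to 92291405) and Sprr2a1 (chromosome 3, 92215799 to 92221911) stood at 115 and 198 TPM and at 27.4 and 43.5 TPM.

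The division of reads among these 3 genes rests on very similar sequences. The coding sequences of Sprr2a1 and Sprr2a2, each 249 bases without the stop codon, were identical. That of Sprr2a3 differed from them at 3 places: G63A, G159T and A192T, with Sprr2a2 as the reference and positions counted from 1 at the A of the start codon. All 3 changes fell on the last base of a proline codon and left proline codons. The sequences are shown because these 3 bases, in capitals, are the only coding positions that tell Sprr2a3 from the other two, and none tells those apart. They come from the GENCODE M21 transcripts.

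Sprr2a1 and Sprr2a2: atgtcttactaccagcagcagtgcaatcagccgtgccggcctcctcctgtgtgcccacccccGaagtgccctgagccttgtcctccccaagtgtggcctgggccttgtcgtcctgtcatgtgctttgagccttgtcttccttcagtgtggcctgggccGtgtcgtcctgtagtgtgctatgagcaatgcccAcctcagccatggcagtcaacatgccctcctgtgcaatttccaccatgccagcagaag

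Sprr2a3: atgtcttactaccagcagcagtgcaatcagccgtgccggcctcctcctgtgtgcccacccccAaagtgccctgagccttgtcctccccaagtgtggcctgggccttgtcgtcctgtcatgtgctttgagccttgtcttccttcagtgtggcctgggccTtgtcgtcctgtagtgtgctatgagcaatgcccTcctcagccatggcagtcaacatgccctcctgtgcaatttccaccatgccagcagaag

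Over whole transcripts, 92.5% of the 100-base windows of Sprr2a1 and 92.8% of those of Sprr2a2 occurred in another member, against 36.2% of those of Sprr2a3. For the other members outside the Lce3 family the share was at most 4.90%. A read from a shared window cannot be placed by its sequence. The summed count of the 3 genes, 39728 and 38312, does not depend on that division. Their summed level was 1964 and 3403 TPM (2683 ± 1017), or 70.0% ± 3.39 of all members, and it does depend on how reads are divided between short and long models, since TPM corrects for length. The remaining 10 Sprr2 genes summed to 11.6 and 28.4 TPM (20.0 ± 11.9).

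The transcript tables gave this division by annotated model. Sprr2a2-202, of 722 nt, and Sprr2a3-201, of 682 nt, are short models of the locus, and Sprr2a1 has in these tables a single long model of 3003 nt. The 2 short models took 92.6% and 93.1% of the 3 genes' expected counts and 98.3% and 98.4% of their TPM. Sprr2a2-202 alone stood at 1818 and 3156 TPM, and the long model of the same gene, Sprr2a2-201, at 3.04 and 4.54 TPM. The first exon of Sprr2a2-202 (chromosome 3, 92215920 to 92215962) lies inside the first exon of Sprr2a1-201 (92215799 to 92215962), while its second exon (92253886 to 92254564) lies at Sprr2a2. These tables hold no short model for Sprr2a1, and short RNA of Sprr2a1 and of Sprr2a2 cannot be told apart in them. The quantifier's posterior SD, 1.58% and 1.81% of the count for Sprr2a1, is conditional on the annotated models.

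**Figure D2:**
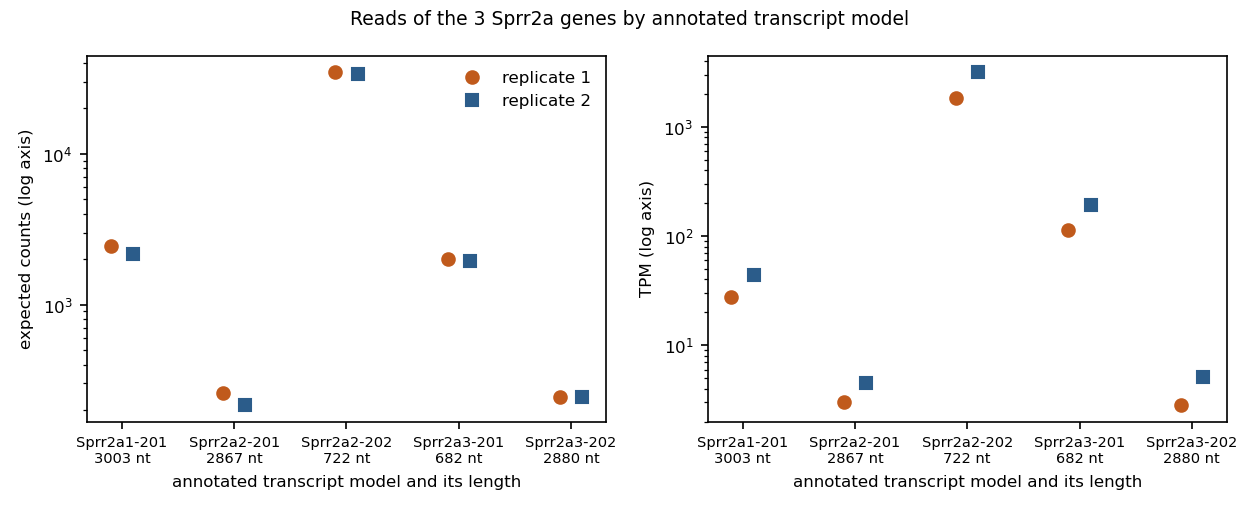
Expected counts (left) and TPM (right), both on log axes, of the 5 annotated transcript models of Sprr2a1, Sprr2a2 and Sprr2a3 with their lengths in nt, with circles for replicate 1 and squares for replicate 2. Sprr2a2-202 holds 34772 and 33750 expected counts, more than the other 4 models together in each library.

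The other detected Sprr2 genes stood far lower. Sprr2i was at 3.71 and 8.89 TPM, Sprr2k at 2.24 and 6.39, Sprr2j-ps at 2.14 and 5.84, Sprr2g at 1.36 and 3.27, and Sprr2d at 1.74 and 2.70. Sprr2j-ps is listed under a pseudogene symbol but typed as protein-coding in M21, while Sprr2g is typed as a polymorphic pseudogene. None of these 5 genes had more than 79 expected counts in a library. Sprr2e, whose coding sequence was 96.9% identical to that of Sprr2i, had no read in either library, and the 2 genes shared only 1.16% of the 100-base windows of Sprr2i. Sprr2b, Sprr2f and Sprr2c-ps were also below 1 TPM, with at most 2.01 expected counts.

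The Sprr1, Sprr3 and Sprr4 genes summed to 667 and 1491 TPM. Sprr1a, also known as cornifin A (ENSMUSG00000050359.7; chromosome 3, 92483952 to 92485895, minus strand), stood at 377 and 789 TPM (583 ± 291), from 8185 and 9571 counts. Sprr3, a gene of oesophageal and oral mucosa (ENSMUSG00000045539.3; chromosome 3, 92456502 to 92458720, minus strand), stood at 287 and 694 TPM (490 ± 288), from 9889 and 13376 counts. The near relative of Sprr1a, Sprr1b, was at 3.12 and 8.21 TPM (5.67 ± 3.60). Sprr4 drew a single read. Neither Sprr1a nor Sprr3 shared a 100-base window with another member, so their levels did not rest on a division of shared reads. Replicate 2 was higher for each of Sprr1a, Sprr3 and Sprr1b, by more than the difference seen for the Sprr2a genes.

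Loricrin and involucrin, the best known scaffold proteins of the epidermal envelope, were low. Lor (ENSMUSG00000043165.7; chromosome 3, 92080271 to 92083142) stood at 2.48 and 3.81 TPM (3.15 ± 0.940), from 128 and 110 counts. Ivl (ENSMUSG00000049128.7; chromosome 3, 92570902 to 92573735) stood at 1.07 and 1.66 TPM (1.36 ± 0.417), from 60 and 52 counts. Together they made 0.131% and 0.109% of the members' TPM. Sprr3 and Sprr1a each stood above both in either library.

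The Lce genes divided by subfamily. None of the 14 Lce1 genes was detected: 5 had no read in either library, the family summed to 1.27 and 0.66 TPM, and no Lce1 gene had more than 6 counts. The highest by mean was Lce1a2, at 0.21 and 0.38 TPM. Lce6a had no read. Of the 6 Lce3 genes 5 were detected, and the family summed to 36.6 and 49.0 TPM (42.8 ± 8.75). Lce3f (chromosome 3, 92992226 to 92993426) led at 20.7 and 30.4 TPM, followed by Lce3a at 6.08 and 9.09, Lce3e at 4.80 and 4.97, Lce3c at 3.21 and 3.14 and Lce3b at 1.72 and 1.41. Lce3d, at 0.11 and 0 TPM, was the exception.

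The 6 Lce3 coding sequences all have 294 bases and were 94.6% to 99.3% identical. Of the 100-base windows of Lce3f, 43.0% occurred in another member, of Lce3e 36.4%, of Lce3d 28.3% and of Lce3c 24.1%, while Lce3a shared none. The division of reads among the other 4 therefore rests in part on shared sequence. The deposited interval of Lce3f, from 18.0 to 22.7 TPM in replicate 1 and from 25.7 to 33.1 in replicate 2, still lay above those of the other Lce3 genes. In replicate 1 the intervals of Lce3a, from 4.75 to 7.31 TPM, and of Lce3e, from 3.45 to 6.03, overlapped. Lce3b, Lce3c and Sprr2g had the widest quantifier intervals of the detected members relative to their level. The deposited interval ran from 1.10 to 2.46 TPM in replicate 1 and from 0.710 to 2.34 in replicate 2 for Lce3b. For Lce3c it ran from 2.24 to 4.32 and from 1.88 to 4.61, and for Sprr2g from 0.921 to 2.04 and from 2.26 to 4.54 TPM.

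Among the 7 S100-fused genes 3 were detected, and 1 stood out. Rptn, which encodes the envelope precursor repetin (ENSMUSG00000041984.2; chromosome 3, 93393699 to 93399442), was at 24.7 and 50.7 TPM (37.7 ± 18.4), from 3070 and 3523 counts. Tchh, for the trichohyalin of hair follicle and tongue, was at 1.92 and 2.18 TPM, and Crnn, for the squamous mucosa protein cornulin, at 1.32 and 1.98 TPM. Hrnr, the hornerin gene, had 281 and 318 counts spread over a long transcript. Flg, the filaggrin gene, had 3.12 and 1.04 expected counts, which is 0.02 and 0.01 TPM. Flg2 stood at 0 and 0.08 TPM and Tchhl1 at 0 in both libraries. Rptn overlaps an unnamed gene, Gm37857, on the same strand, which drew 8 counts in each library.

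Along the chromosome, the share of detected members differed between blocks of neighbouring members, beside 35.5% of all 43346 genes. The Sprr block, 285 kb from Sprr2a1 to Sprr4 with 17 members, had 11 detected, with undetected members between them, and summed to 2643 and 4922 TPM. The 205 kb from Lce1a1 to Lce1l that followed Ivl and Lce6a had none of 13 detected. The next block, 68.1 kb from Lce3a to Lce3f, had 5 of 6 detected, and the last, 327 kb from Crnn to Tchhl1, had 3 of 7. Across the 47 genes, which are not independent replicates, the Spearman correlation of TPM between the libraries was 0.899.

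The members' start sites were then searched for short motifs of factors known to act on epidermal genes. RefSeq promoter windows of GRCm38.p6, 250 bases before to 50 bases after the annotated start, were matched for 43 of 47 members, and Lce1f, Sprr2c-ps, Sprr2g and Sprr2j-ps had none. Motifs were searched on both strands. The AP-1 motif TGANTCA, bound by Jun and Fos proteins, was in 16 of 43 windows, or 37.2%, against 7.81% of all 32851 windows. The TATA motif TATAAA was in 20 of 43, or 46.5%, against 13.6%. Both were in 14 of 43, or 32.6%, against 1.54%. Members arose by duplication and share sequence, so their windows are not independent.

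Exact matches to these motifs, at any position in the window, were found in most Sprr and S100-fused windows and in few Lce windows. AP-1 was in 9 of 14 Sprr windows, 5 of 7 S100-fused windows and both windows of Lor and Ivl, and in 0 of 13 Lce1 and 0 of 6 Lce3 windows. TATA was in 10 of 14 Sprr windows, 4 of 7 S100-fused windows, 2 of 13 Lce1 windows and 1 of 6 Lce3 windows. The Lce3 match, in Lce3e, began 243 bases before the start. Variants of TATAAA were not searched for, so a window without a match may still hold a TATA box. The other motifs were nearer to the background of all windows: CACCC of Klf factors in 51.2% against 57.5%, GGAAGT of Ets factors in 27.9% against 23.8%, TGACNNNGC of Nfe2l2 in 18.6% against 12.4%, and AACNGGTT of Grhl factors in 1 of 43 against 2.09%. A CACCC or GGAAGT match is short and frequent by its length. AP-1 was in 9 of 19 detected members and 7 of 24 others, and TATA in 11 of 19 and 9 of 24. A match is a description of the letters and not evidence of a bound site.

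The bases before the RefSeq start of 6 detected members are shown because they differ in level and in motif content. Of these, Sprr1a, Sprr1b and Sprr3 belong to the same family as grouped here. Matches to AP-1, TATA, Ets and Grhl motifs on either strand are in capitals, each line reads 5′ to 3′ on the gene's own strand, and bases annotated as untranslated region were left out at the right end of Sprr1a and Sprr1b.

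Sprr1a (chr3:92485896-92486031, minus strand): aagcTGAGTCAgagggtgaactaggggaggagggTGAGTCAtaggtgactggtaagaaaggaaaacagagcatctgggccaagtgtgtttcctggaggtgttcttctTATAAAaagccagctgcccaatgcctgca

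Sprr1b (chr3:92438790-92438929, minus strand): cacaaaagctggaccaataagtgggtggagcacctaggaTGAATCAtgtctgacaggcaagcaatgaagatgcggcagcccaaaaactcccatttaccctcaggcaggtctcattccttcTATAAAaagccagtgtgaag

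Sprr3 (chr3:92458721-92458870, minus strand): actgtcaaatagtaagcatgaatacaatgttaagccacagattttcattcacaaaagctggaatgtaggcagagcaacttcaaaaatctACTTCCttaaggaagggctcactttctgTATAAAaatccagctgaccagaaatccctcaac

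Rptn (chr3:93393549-93393698, plus strand): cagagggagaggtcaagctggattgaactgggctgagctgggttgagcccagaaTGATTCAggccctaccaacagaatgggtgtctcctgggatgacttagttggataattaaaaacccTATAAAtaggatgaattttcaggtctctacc

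Ivl (chr3:92573736-92573885, minus strand): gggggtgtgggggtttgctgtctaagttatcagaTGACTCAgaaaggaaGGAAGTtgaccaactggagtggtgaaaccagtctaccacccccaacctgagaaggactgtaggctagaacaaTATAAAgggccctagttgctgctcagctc

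Lce3f (chr3:92992067-92992216, plus strand): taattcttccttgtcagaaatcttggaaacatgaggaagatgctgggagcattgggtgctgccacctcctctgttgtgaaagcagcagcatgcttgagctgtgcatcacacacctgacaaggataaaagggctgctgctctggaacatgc

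Sprr1a, at 377 and 789 TPM, carried 2 AP-1 matches, starting 146 and 116 bases before the RefSeq start, and TATA. Sprr1b, at 3.12 and 8.21 TPM, carried 1 AP-1 match and TATA. Sprr3, at 287 and 694 TPM, had TATA and 1 Ets match in the stretch shown and no AP-1 match in its window. Ivl, at 1.07 and 1.66 TPM, had AP-1, Ets and TATA matches. Lce3f had none of these motifs in the stretch shown. These 6 members were picked because they differ in level and in motif content, so they cannot show whether motifs and levels go together. That link was not tested.

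The Sprr2 genes other than the Sprr2a copies were alike at this point. All 7 of their windows had an AP-1 match that began 193 to 198 bases before the start and a TATA match that began 29 bases before it. Of these 7 genes, 3 were detected and 4 were not. Sprr2e, with no read, and Sprr2i, at 3.71 and 8.89 TPM, are shown as such a pair, with the same marks. Their 250 bases before the start, set side by side without gaps, were identical at 177 positions, or 70.8%.

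Sprr2e (chr3:92351943-92352142, plus strand): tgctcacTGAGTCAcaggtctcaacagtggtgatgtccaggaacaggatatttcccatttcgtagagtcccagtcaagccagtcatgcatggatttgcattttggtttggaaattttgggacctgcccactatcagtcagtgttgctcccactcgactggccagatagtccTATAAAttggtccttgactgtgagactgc

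Sprr2i (chr3:92407791-92407990, plus strand): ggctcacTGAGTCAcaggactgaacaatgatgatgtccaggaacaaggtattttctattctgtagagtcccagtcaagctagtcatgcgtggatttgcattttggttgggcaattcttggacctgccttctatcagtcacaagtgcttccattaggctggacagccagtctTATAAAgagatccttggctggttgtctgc

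The windows of Sprr2a1 and Sprr2a2 were identical over all 300 bases, and that of Sprr2a3 matched them over 272 bases when moved by 28. Neither AP-1 nor TATA was found in the windows of Sprr2a1 and Sprr2a2. The Sprr2a1 window ends at position 92215884, before the first exon of Sprr2a2-202 begins at 92215920. The Sprr2a2 window ends at 92250696, before the first exon of Sprr2a2-201 at 92250747. That of Sprr2a3 ends at 92285353, before the first exon of Sprr2a3-202 at 92285417. The bases next to these exons were therefore not searched, and the Sprr2a windows count above as windows without AP-1 or TATA.

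Members were next compared between the 2 pools. Counts were scaled so that the typical gene was equal (TMM), and the log2 ratio of replicate 1 over replicate 2 was taken for the 22 members that passed a low-count filter. These were the 21 detected members and Hrnr. Of the 22, 20 had a ratio below 0, beside 49.6% of the 17763 genes past the filter, and the median was -0.76 against 0.00 for all genes, or 1.69-fold lower in replicate 1. More than 2-fold lower in replicate 1 were 8 of 22 members, beside 2.34% of all genes. More than 2-fold higher were 0 of 22, beside 1.24%. The 95% counting interval, which covers counting error only, lay wholly below 0 for 17 of 22 members and for 20.6% of all genes. The members' ratios are not independent of each other, and the spread between 2 pools has no further replicate.

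By family, the ratios were furthest from 0 among the Sprr genes. Sprr3 had a log2 ratio of -1.24 (counting interval -1.28 to -1.20) and Sprr1a of -1.03 (-1.07 to -0.99). Sprr1b, with fewer reads, was at -1.33 (-1.82 to -0.91). The 3 Sprr2a genes were closer to the middle of the members, at -0.76 for Sprr2a2 (-0.78 to -0.74), -0.75 for Sprr2a3 and -0.63 for Sprr2a1. The intervals of Sprr3 and Sprr1a did not reach those of the 3 Sprr2a genes. Sprr2k at -1.42, Sprr2j-ps at -1.36, Sprr2i at -1.19 and Sprr2g at -1.15 were the other Sprr2 genes past 2-fold, and Sprr2d at -0.57 had an interval that included 0. All 11 Sprr genes past the filter were below 0, with a median of -1.15.

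The S100-fused genes and the scaffold genes had smaller or mixed values. Rptn was at -1.001 (-1.07 to -0.93), which made it the last of the 8 members past 2-fold; scaled by library totals it was at -0.98. Hrnr was at -0.97 (-1.22 to -0.75). Crnn was at -0.80 and Tchh at -0.15, with an interval of -0.40 to 0.11. Ivl and Lor were at -0.58 and -0.57. Within the Lce3 family, Lce3a at -0.53 and Lce3f at -0.52 were lower in replicate 1. Lce3e at 0.00, Lce3c at 0.07 and Lce3b at 0.29 had intervals that included 0, and with spike-in scaling they stood at -0.56, -0.48 and -0.23. Spike-in scaling moved the median of all genes by -0.57 and the members' median to -1.33, which is -0.76 relative to that shift.

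**Figure D3:**
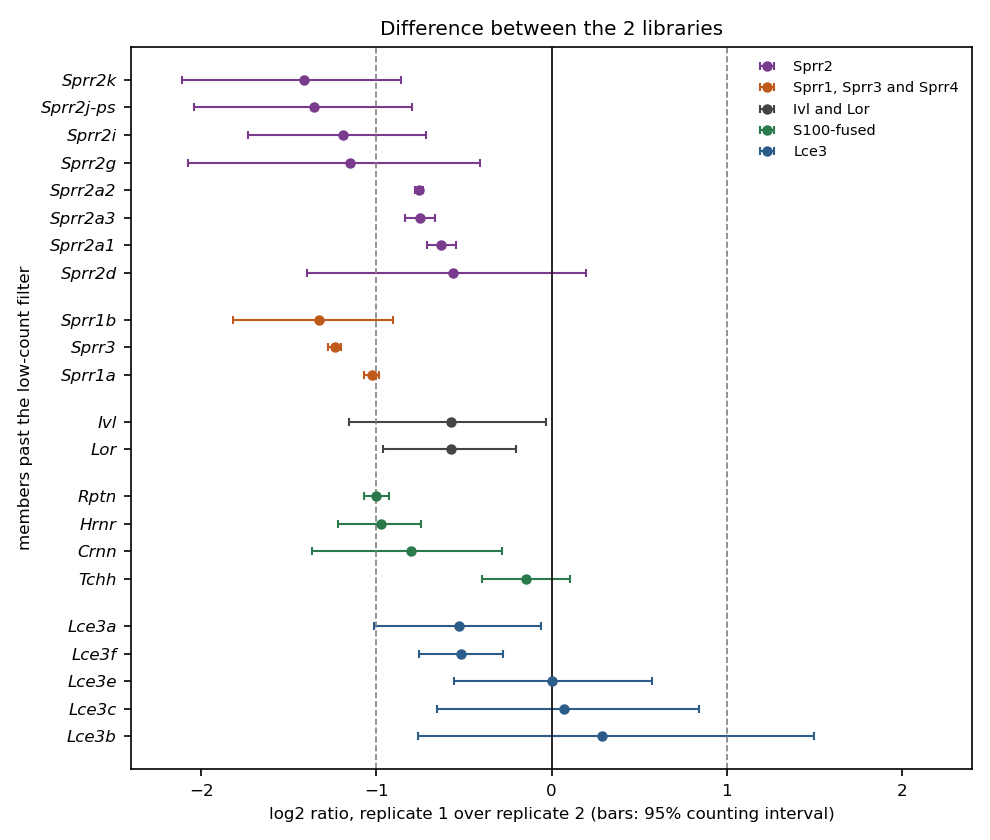
Log2 ratio of replicate 1 over replicate 2 after TMM scaling for the 22 members past the low-count filter, grouped by family, with 95% counting intervals as bars and dashed lines at 2-fold. The Sprr genes all lie left of 0, while Lce3b, Lce3c, Lce3e, Tchh and Sprr2d have intervals that include 0. With spike-in scaling, not drawn here, all 22 were below 0, but that scaling moved the median of all genes by -0.57.

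The pools also differed in skeletal muscle transcripts. All 10 of 10 skeletal muscle markers exceeded 2-fold in favour of replicate 1, and none was at 0 in either library. Their summed level was 2334 and 186 TPM, or 0.233% and 0.0186% of all transcripts, with single genes from 32.7 to 906 TPM in replicate 1 and from 1.12 to 101 TPM in replicate 2. Acta1 stood at 906 and 101 TPM, Myl1 at 405 and 17.6, Tnnc2 at 306 and 13.2, and Myh3, with the lowest mean, at 32.7 and 1.60. Their part in the members' difference was not tested. Skin was looked for in the same way, with 10 markers. Of these, 4 reached 1 TPM in both libraries, led by Krt17, Krt10 at 7.19 and 7.42 TPM and Krt1 at 2.57 and 3.13. Krt2 stood at 0.04 and 0.02 TPM, Dsc1 at 0 and 0.02, Krt71 at 0 and 0.03 and Krt27 at 0 and 0.12. The 10 skin markers summed to 39.0 and 51.4 TPM, of which Krt17, a keratin that other stratified epithelia also express, made 27.5 and 38.3; their part in the members' levels was not tested.

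Genes that act with the members were taken from lists of related functions, in which highest and lowest refer to the mean TPM of the 2 libraries. Of 16 genes for cross-linking enzymes and other envelope proteins, all were detected, with a median of 57.5 and 90.5 TPM. The highest were Cnfn, which encodes the envelope protein cornifelin, at 980 and 1810 TPM, Anxa1, a cross-linked annexin, at 1034 and 1453, and Krtdap, for a differentiation-associated secreted protein, at 620 and 951. Of the transglutaminase genes, Tgm2, which is expressed in many tissues, stood at 99.4 and 111 TPM, Tgm1 at 42.4 and 60.4, Tgm3 at 2.47 and 3.06, and Tgm5, the lowest of the list, at 1.24 and 2.26. All 16 had ratios below 0, with a median of -0.47. Cdsn, the corneodesmosin gene, was the only one past 2-fold, at 6.22 and 20.9 TPM and a log2 ratio of -1.71.

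Proteases and inhibitors that act on envelope proteins were detected for 8 of 14 genes, with a median of 6.67 and 10.8 TPM. Ctsd, for cathepsin D, stood at 370 and 509 TPM, Asprv1, whose protease cleaves profilaggrin, at 295 and 578, and Ctsl at 172 and 167. Asprv1 thus stood high where Flg was near 0. Flg was counted on a single annotated model of 4523 nt, which is absent from M21. Klk5 had the lowest mean, at 0.09 and 0.10 TPM. Of 10 past the filter, 8 were below 0, the median was -0.36, and only Padi1 was past 2-fold, at 0.25 and 0.77 TPM; it lies outside the naming rule and was named after its values were seen.

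Of 17 genes for barrier lipids 15 were detected, with a median of 17.5 and 28.8 TPM. Elovl1 at 139 and 172 TPM, Sptlc2 at 81.1 and 82.5 and Alox12b at 34.2 and 75.5 were highest, and Abca12 had the lowest mean, at 0.97 and 1.34. Of the 17 genes 16 were below 0, with a median of -0.43. The 4 past 2-fold were Alox12b at -1.11, Aloxe3 at -1.44, Sdr9c7 at -1.46 and Pnpla1 at -1.17, all enzymes that process the ceramides bound to the envelope. Their levels were 1.65 and 4.53 TPM for Aloxe3, 3.57 and 10.2 for Sdr9c7 and 0.83 and 1.94 for Pnpla1.

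Transcription factors and chromatin regulators of epidermal genes had ratios nearer to 0. Of 30 genes 28 were detected, 20 were below 0, none was past 2-fold in either direction and the median was -0.18. Elf3 stood at 130 and 177 TPM, Nfe2l2 at 103 and 119 and Jun at 87.0 and 76.1. Fosl1, an AP-1 subunit, was lowest, at 0.38 and 0.29 TPM. Jun, whose AP-1 motif lay in 16 member windows, had a log2 ratio of 0.23, and Fos stood at 13.1 and 17.7 TPM with a ratio of -0.40.

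Neighbouring genes of the complex gave mixed values. All 13 S100 genes were detected, with 8 below 0 and a median of -0.17. S100a11 led at 1705 and 1961 TPM, then S100a10 at 489 and 483 and S100a6 at 383 and 422, and S100a3 was lowest at 2.02 and 3.71. S100a7a, a psoriasin relative, was past 2-fold at -1.65, with 8.83 and 28.8 TPM. Of 8 other genes of the complex 4 were detected and 2, Prr9 and Lelp1, had no read. Them5 at 25.9 and 41.5 TPM, Them4 at 9.33 and 8.18 and Pglyrp3 at 2.29 and 6.59 were highest, 3 of 5 past the filter were below 0 with a median of -0.64, and Pglyrp3 was past 2-fold at -1.45.

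Genes of the squamous layers were measured beside the members. Suprabasal genes had a median of 72.7 and 99.7 TPM, led by Krt4 at 1787 and 3252, Krt13 at 1505 and 2399 and Gsta4 at 650 and 831, with Krt76 lowest at 0.03 in both libraries. All 13 past the filter were below 0, with a median of -0.59, and Dsg1a, at 0.23 and 0.61 TPM, was past 2-fold; it was named after its values were seen. Basal genes had a median of 36.0 and 40.8 TPM, led by Krt15 at 1197 and 1477, Perp at 387 and 552 and Krt5 at 376 and 499, with Col17a1 lowest at 10.2 and 13.0. Of these, 9 of 10 were below 0, with a median of -0.38 and none past 2-fold. The members' median of -0.76 thus lay further from 0 than either list, and the spread within the members, from -1.42 to 0.29, covered both medians.

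Relative to Krt5, the keratin of the basal layer, the members' summed TPM was 7.22 in replicate 1 and 10.1 in replicate 2 (8.65 ± 2.03). Relative to Krt13, the keratin of the suprabasal layers of mucosa, it was 1.80 and 2.10 (1.95 ± 0.209). Set against Krt13, Sprr3 was 1.52 times higher in replicate 2, Sprr1a 1.31 times and Rptn 1.29 times. The Sprr2a genes together were 1.09 times higher, and the Lce3 genes were at 0.839 of their replicate 1 value. Set against Krt5, replicate 2 over replicate 1 was 1.82 for Sprr3, 1.58 for Sprr1a and 1.55 for Rptn. It was 1.31 for the Sprr2a genes and 1.01 for the Lce3 genes, so these ratios depend on the keratin chosen.

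Lists named for other epithelia gave the remaining values. The 13 genes of simple gastric epithelium were all below 0, with a median of -0.43, a median level of 90.9 and 138 TPM, and Krt8 at 1017 and 1302, Krt19 at 927 and 1272 and Krt18 at 458 and 524. Muc5ac was lowest at 2.00 and 2.68 TPM, and the gastrokine genes Gkn1 at -1.76 (5.12 and 18.0 TPM) and Gkn2 at -1.64 (7.64 and 24.8 TPM) were past 2-fold. Of 8 intestinal genes past the filter 3 were below 0, with a median of 0.09. Fabp1 at 676 and 540 TPM, Lgals4 at 286 and 321 and Apoa4 at 185 and 164 were highest, and Sis, at 0.03 and 0.06, was lowest. The 5 genes of a urothelium list were below 0 with a median of -0.46. Upk1b stood at 61.4 and 86.4 TPM, Upk3b at 41.3 and 48.3 and Upk2 at 32.0 and 41.6. Which cells of the stomach express these genes was not tested. Upk1a, at 4.10 and 8.63 TPM, and Upk3a, the other gene past 2-fold and lowest of the list on average, at 3.49 and 8.97 TPM, had ratios of -1.03 and -1.30. Lower values in replicate 1 were thus also seen in squamous, glandular and urothelial lists, and were not tested as particular to the members.

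**Figure D4:**
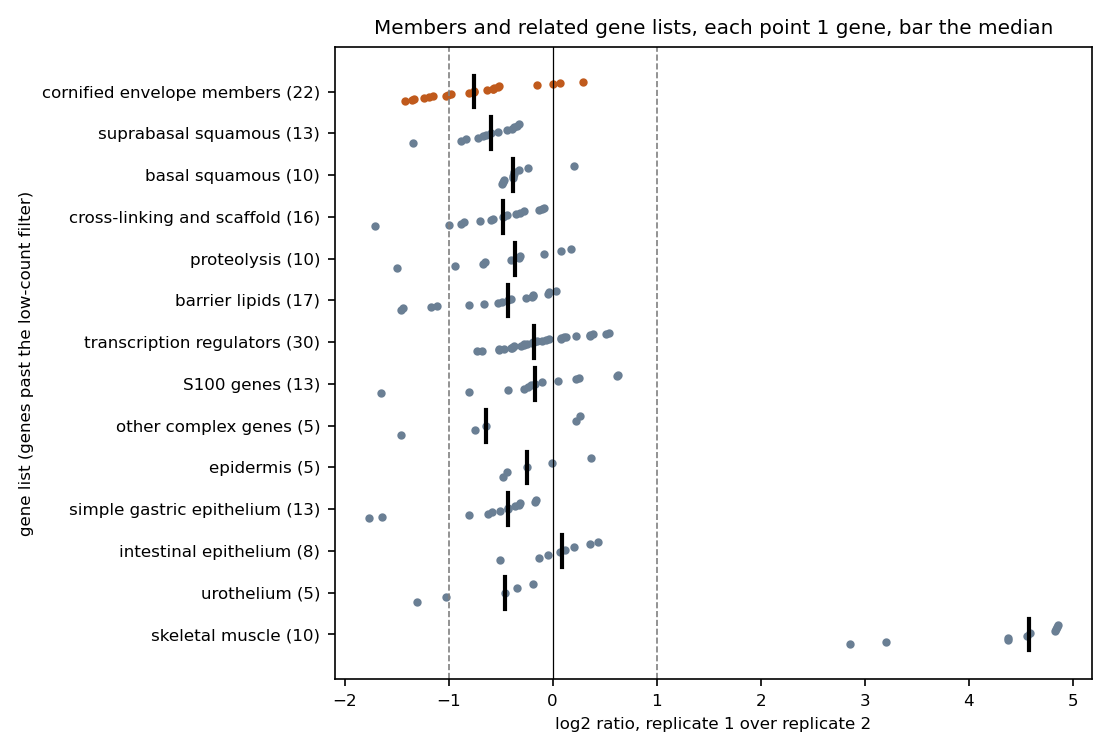
Log2 ratio of replicate 1 over replicate 2 after TMM scaling for the 22 members past the filter and for 13 related gene lists, each point 1 gene and each black bar the list's median, with the number of genes past the filter in parentheses and dashed lines at 2-fold. The members' median is -0.76, the suprabasal squamous median is -0.59, the regulators' is -0.18, and the skeletal muscle genes lie right of 2-fold.

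The coding sequences of the families differed in composition. The family symbols stand in part for composition, as in small proline-rich, so these values are a description. Proline codons made a median of 35.4% of the Sprr2 coding sequences, 25.7% of those of Sprr1, Sprr3 and Sprr4, 10.3% of Lce1 and 3.08% of the S100-fused genes. The Sprr2 median included Sprr2g, at 14.3%, and Sprr2j-ps, at 9.17%. Glycine codons made 55.3% of Lor and a median of 20.3% of Lce1 and 12.2% of Lce3. Glutamine codons, for a residue that transglutaminases cross-link, made 26.7% of Ivl, 20.1% of Rptn and 3.09% of Lor. Cysteine codons made 21.5% of Lce1, 16.6% of Sprr2 and 0.627% of the S100-fused genes at the median. The 3 members that held most of the members' TPM, Sprr2a2, Sprr1a and Sprr3, had 31.3%, 31.9% and 20.6% proline codons, and glycine-rich Lor and the Lce1 genes were at a few TPM or below. The highest shares of proline codons were in members at low levels. Sprr2h had 42.6% at 0.31 and 1.07 TPM, and Sprr2b had 41.8% at 0.05 and 0.17 TPM. A link between composition and level was not tested.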

How the data were processed

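Total RNA-seq of pooled stomach was measured in both libraries. Which aligner and quantifier were used is not given in the sources used here. For each library the authors deposited a gene table and a transcript table, on mm10 with GENCODE M4 per the labels and the files. Expected counts are, per the file headers, reads per gene or transcript as the authors estimated them, with shared reads split into fractions. The authors also deposited TPM, posterior mean TPM and FPKM, which correct for transcript length and for depth, with spike-ins kept in the total. The percent of a gene's transcripts held by each model was deposited by the authors in the transcript tables and not used for a result.

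Symbols and positions came from GENCODE M21 (42462 of 43346 genes named; 42 members kept their identifier version and 5 did not). Expected counts were rounded, filtered with filterByExpr (1 group) and TMM-scaled with edgeR 4.0.16 under R 4.3.3, with factors of 1.01 and 0.992. Log2 ratios used a prior count of 2. Counting intervals are exact Clopper-Pearson intervals at 95%. A quasi-likelihood test needs a second group and was not run. edgeR's common dispersion gave a coefficient of variation of 17.3% between the libraries. DESeq2 1.42.0 size factors, library totals and spike-ins were alternatives. Transcripts of M21 were cut into 100-base windows and compared between members, since effective length was length minus 99. Of 59 member transcripts, 56 had the same length in M21, and the others were models of Flg and Flg2. The ratio step was tested on simulated data. Other steps used Python 3.11.15, numpy 2.4.6 and pandas 2.3.3, and figures matplotlib 3.10.9.

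The members and the gene lists were chosen with earlier results of these data known. Named were all detected members, the highest of each family, Ivl, Lor and Flg, the 3 detected members with the widest quantifier interval, and of each list the 3 highest genes, the lowest, and genes past 2-fold with a mean of 1 TPM or more. Krt20 and Trp63 each stand in a pair of lists. Depth limits the lowest members: 25 members did not pass the filter and had at most 12 counts. Strand use in counting is not given in the sources used here, and no member overlapped an exon of a gene on the opposite strand. Protein sequences were not analysed here.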

Additional observations from a re-analysis of the deposited data

Results flagged for a closer look

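Reads were also found on genes of the same stretch of chromosome 3 that are neither members nor on a list, at more than 3 expected counts, the upper limit for a count of 0, in both libraries. This held for 4 of 31 such genes. Crct1, a cysteine-rich gene between Lce3f and Lce1m, had 1285 and 1545 expected counts, or 67.6 and 145 TPM, more than any Lce gene. Gm4202, a processed pseudogene within the Lce1 block, had 717 and 1251 expected counts, or 36.9 and 115 TPM; whether these reads come from another copy was not tested. Gm9774, in the Sprr block, had 264 and 325 expected counts, or 6.65 and 14.7 TPM. Gm37857, which overlaps Rptn on the same strand, had 8 and 8 expected counts.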

How the results depend on the processing

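No paired analysis was possible because both libraries belong to 1 group. Members detected numbered 8 rather than 21 at a threshold of 5 TPM, 22 at 0.5 TPM and 17 at 1 FPKM, and 21 to 23 from a single library. The share of all genes was taken only at 1 TPM in both libraries, so these other counts have no such share beside them. The summed level was 2713 to 5034 TPM from a single library and 1190 TPM without the 3 Sprr2a genes, an alternative added after the data were seen. The share of the 3 highest members was 85.3% in expected counts and 91.6% to 92.2% of TPM from a single library. The members' median log2 ratio was -1.33 with spike-in scaling, which moved all genes, and -0.58 without the low-count filter, when 38 members entered; it was -0.80 without the Sprr2a genes. More than 2-fold lower in replicate 1 were 18 of 22 members with spike-in scaling, which moved the median of all genes by -0.57. Relative to that shift the number was 8, and the share of all genes under this scaling was not computed. Without the filter 3 of 38 members were more than 2-fold higher, each from a few counts. DESeq2 size factors, library totals, unscaled TPM and prior counts of 0.5 and 5 left the count of lower members at 7 or 8. Motif counts kept to the 250 bases before the start were 18 for CACCC and 7 for the Nfe2l2 motif, and equal for the others. Lce1 and most undetected members lie at the depth limit, and the 2 pools give no estimate of error beyond their own spread.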
